A study of Mus musculus with 4 samples.

Results

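The T cell receptor for antigen signals through the CD3 chains and a short relay of kinases and adaptors, and 9 genes of that machinery were followed here in group 2 innate lymphoid cells (ILC2s), lymphocytes that carry no rearranged antigen receptor on their surface and respond to tissue cytokines. The genes were chosen by name as the CD3 chains (Cd3d, Cd3e, Cd3g and Cd247), the kinases Lck, Fyn and Zap70, and the adaptors Lat and Lcp2. All 9 were found, each once, among the 19088 genes of the deposited table, and the question was which parts of the machinery ILC2 libraries hold and whether KO and WT libraries differ in them. The ILC2s were sorted from epididymal fat of male C57BL/6 mice 8 weeks old, with 2000 to 4000 cells behind each RNA preparation. The KO group (2 libraries) had the genotype R5/+Stk11f/f, in which Stk11, the gene of the kinase LKB1, is floxed. The WT group (2 libraries) had the genotype R5/+, so both groups carry 1 copy of the R5 allele. The labels name neither the promoter nor the recombinase behind R5, nor whether libraries come from separate or pooled animals, so p-values measure the spread between these libraries, which may be technical.

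In T cells, CD3 gamma, delta and epsilon pair as gamma-epsilon and delta-epsilon dimers beside the antigen receptor, and CD247 (CD3 zeta) joins as a homodimer. Their tails carry tyrosine motifs called ITAMs, which the Src family kinases LCK and FYN phosphorylate. ZAP-70 binds the phosphorylated motifs and in turn phosphorylates LAT and SLP-76 (encoded by Lcp2), which gather the enzymes of calcium and Ras signalling. Several of these proteins also serve other receptors: LAT, SLP-76 and FYN act downstream of the IgE receptor of mast cells, and CD247 signals for receptors of NK cells.

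Values are FPKM, fragments per kilobase of transcript scaled to the library's mapped fragments, so levels of different genes are per length. Stk11 stood at 31.9 and 16.6 FPKM in the KO libraries and at 43.1 and 39.1 FPKM in the WT libraries. Both KO libraries lay below both WT libraries, but the difference was not past the threshold (adjusted p = 0.548, limma), and reads of exons outside the floxed part count too. Of 15 ILC2 identity genes, all were listed above 18 FPKM in every library, with Gata3, the transcription factor that specifies the lineage, at 508 and 417 FPKM in KO and 530.1 and 422 FPKM in WT. Their summed level was 9595 and 9334 FPKM in KO and 9743 and 10108 FPKM in WT. Id2 alone gave 4870 and 5317 FPKM of it in KO and 5017 and 5149 FPKM in WT. Of the 15 genes 0 passed (limma), against 0.214% of all genes tested, and 3 had an unadjusted p under 0.05, against 9.18%. These were Arg1 (log2 fold change, KO minus WT, -0.97), Rora (-0.56) and Icos (1.11), named after their values were seen. Groups did not overlap in 5 of the 15, 4 with KO lower, against 39.1% of all genes. Mast cell genes were also abundant: 8 of 9 listed markers were matched, and their sum was 24909 and 39095 FPKM in KO and 15918 and 13315 FPKM in WT, so the groups did not overlap. In such bulk samples, fewer cells of a type and less RNA per cell cannot be told apart.

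The CD3 chains were held very unequally. Cd3g was among the more abundant genes of every library, while Cd3d and Cd3e, its neighbours in the genome and its partners in the T cell complex, stood under 5 FPKM. Cd3g supplied 95.2% and 95.3% of the summed FPKM of the CD3 chains in the KO libraries and 93.98% and 95.8% in the WT libraries. The upstream sequences of these 3 genes are shown because their levels differ so widely over a short stretch of chromosome. On GRCm38.p6, Cd3g (gene 12502) lies on the minus strand of chromosome 9 from 44969572 to 44980431, Cd3d (gene 12500) on the plus strand from 44981769 to 44987052, and Cd3e (gene 12501) on the minus strand from 44998735 to 45009663. The annotated start sites of Cd3g and Cd3d point away from each other and are 1355 bp apart, and that of Cd3e is 29180 bp from that of Cd3g. Each window below runs from 250 bases before the start to 50 bases after it, 5′ to 3′ on the gene's own strand (RefSeq, GRCm38.p6), and capitals mark the motif matches described next.
Cd3g, chr9:44980382-44980681, minus strand: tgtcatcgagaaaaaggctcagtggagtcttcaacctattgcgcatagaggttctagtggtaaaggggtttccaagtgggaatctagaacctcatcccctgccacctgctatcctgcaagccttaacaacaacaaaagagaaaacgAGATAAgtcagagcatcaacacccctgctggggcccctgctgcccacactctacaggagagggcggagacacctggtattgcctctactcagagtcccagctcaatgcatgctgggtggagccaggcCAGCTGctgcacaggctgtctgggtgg
Cd3d, chr9:44981536-44981835, plus strand: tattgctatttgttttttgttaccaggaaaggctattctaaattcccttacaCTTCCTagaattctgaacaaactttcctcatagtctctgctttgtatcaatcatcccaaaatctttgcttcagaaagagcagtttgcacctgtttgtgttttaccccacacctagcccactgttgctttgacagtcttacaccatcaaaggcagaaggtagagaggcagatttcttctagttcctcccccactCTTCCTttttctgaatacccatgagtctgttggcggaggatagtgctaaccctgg
Cd3e, chr9:45009562-45009861, minus strand: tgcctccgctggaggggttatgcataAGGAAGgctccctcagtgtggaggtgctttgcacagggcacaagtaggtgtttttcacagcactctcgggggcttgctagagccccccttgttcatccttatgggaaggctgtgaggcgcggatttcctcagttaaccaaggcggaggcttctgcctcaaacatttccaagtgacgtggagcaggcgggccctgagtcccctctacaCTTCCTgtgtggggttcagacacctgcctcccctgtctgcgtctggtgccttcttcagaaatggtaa

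Motifs of 5 kinds were searched on both strands, none of which overlap each other in these windows. For GATA factors the letters were AGATAA. RUNX factors were searched as TGTGGT, and ETS factors as AGGAAG. An E-box was searched as CAGCTG, and a TATA box as TATAAA. The Cd3g window held the GATA letters once, at bases 147 to 152 of the window, and the E-box once, at bases 274 to 279. The Cd3d window held the ETS letters at 2 places and the Cd3e window also at 2, and neither held the GATA, RUNX, E-box or TATA letters. Among 32817 promoter windows of the same length, 11.2% held the GATA letters, 16.8% those of RUNX, 35.4% those of ETS, 16.3% the E-box and 13.6% the TATA box. Over the 12 windows annotated for the 9 genes, the GATA letters occurred in those of Cd3g and Lcp2. Such matches describe letters and show no binding.

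Cd3g encodes the gamma chain. It was measured at 189 and 189 FPKM in KO and at 228 and 267 FPKM in WT. Both KO libraries lay below both WT libraries, and the log2 fold change of -0.38 (SE 0.21, 95% interval -0.86 to 0.09) missed the threshold (adjusted p = 0.609, limma). All FPKM summed to 939623 and 943240 in the KO libraries and to 986027 and 1069515 in the WT libraries. With libraries scaled to a common total, the log2 fold change of Cd3g was -0.26. It was -0.28 with the 20 highest genes left out of that total. In rank, Cd3g lay above 96.7% and 96.7% of the genes listed in the KO libraries and above 97.1% and 97.4% in the WT libraries.

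Cd3d encodes the delta chain. Its values were 0.40 and 1.04 FPKM in KO and 1.14 and 0.93 FPKM in WT. The groups overlapped, and its mean of 0.88 FPKM was under the level of 1 FPKM required for testing. Cd3g exceeded Cd3d by 474-fold and 182-fold in the KO libraries and by 200.1-fold and 288-fold in the WT libraries.

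Cd3e encodes the epsilon chain, the partner of both gamma and delta. It stood at 1.87 and 4.91 FPKM in KO and at 1.53 and 0.24 FPKM in WT. The KO libraries were both higher, and the log2 fold change of 1.22 (SE 0.67, 95% interval -0.31 to 2.74) missed the threshold (adjusted p = 0.616, limma). The value was 0.70 without KO replicate 2, 0.70 without WT replicate 2, 1.74 without KO replicate 1 and 1.73 without WT replicate 1. With a pseudocount of 0.1 it was 2.08. Cd3g exceeded Cd3e by 101-fold and 38.5-fold in KO and by 149-fold and 1114-fold in WT.

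Cd247 (gene 12503, chromosome 1 from 165779952 to 165871153) encodes the zeta chain, which carries most of the ITAMs of the T cell complex. It was at 7.25 and 3.44 FPKM in KO and at 11.9 and 10.6 FPKM in WT. Both KO libraries lay below both WT libraries. The log2 fold change was -1.02 (SE 0.48, 95% interval -2.10 to 0.07), not past the threshold (limma, adjusted p = 0.552). It was -0.57 without KO replicate 2, -1.46 without KO replicate 1, -1.05 with quantile normalization and -0.91 under a common total. Overlapping annotation may limit 2 of the chains. On the same strand, Gm48720 overlaps Cd3e and Gm16565 overlaps Cd247. If strand was not used in counting, genes on the opposite strand matter too. Among them are an antisense transcript over Cd3e and the Pou2f1 gene, at 1.08 to 2.41 FPKM, over Cd247. Genes on the opposite strand also overlap Fyn, Zap70 and Lcp2.

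**Figure D1:**
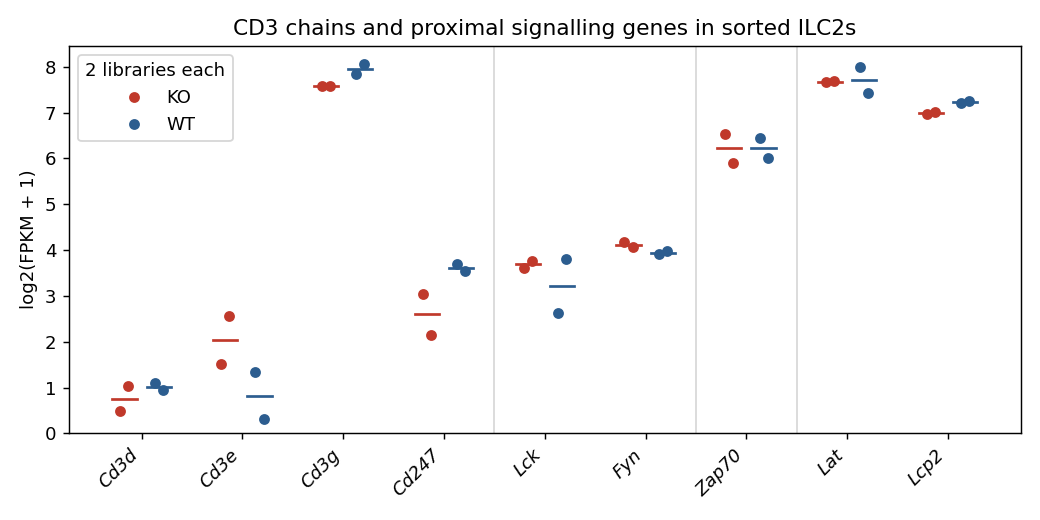
FPKM of the 9 genes as log2(FPKM + 1), each point 1 library (2 KO, 2 WT) and each bar the group mean. Cd3g, Zap70, Lat and Lcp2 lie well above Cd3d and Cd3e, and the groups overlap in Cd3d, Lck, Zap70 and Lat.

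Other protein-coding genes near Cd3g, taken from those with an annotated promoter window, did not share its level either. Among these, within 150 kb of its start, Atp5l, a subunit of ATP synthase, was the 1 gene above Cd3g. Atp5l was at 919 and 1108 FPKM in KO and 1395 and 1427 FPKM in WT. Ube4a, a ubiquitin ligase gene whose start is 14.8 kb away, was at 1.71 and 4.85 FPKM in KO and 1.74 and 4.21 FPKM in WT. The adhesion gene Jaml and the sodium channel gene Scn2b were at 0.02 FPKM or less in KO and at 0.27 FPKM or less in WT. Kmt2a, a histone methyltransferase gene, was at 5.22 and 3.71 FPKM in KO and 6.40 and 4.10 FPKM in WT.

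**Figure D2:**
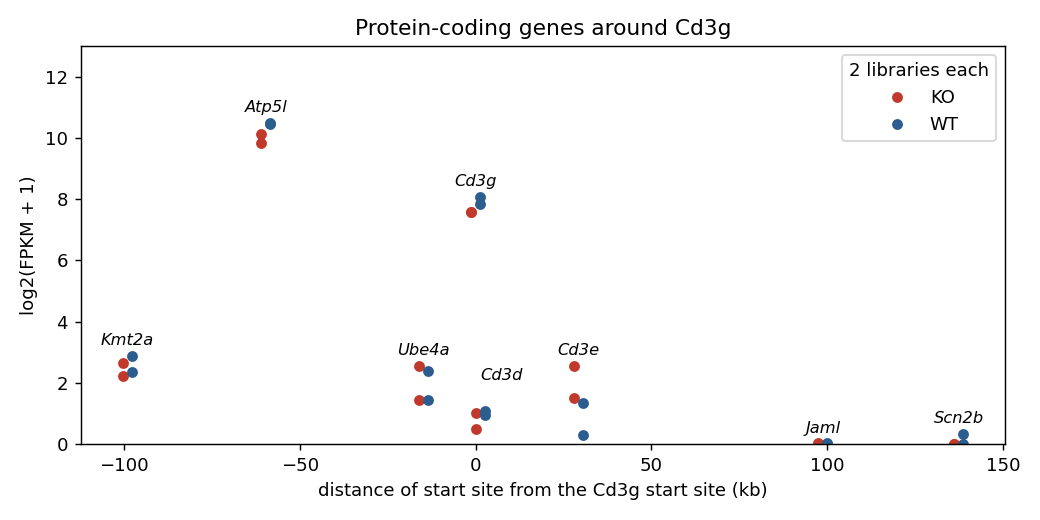
Level, as log2(FPKM + 1), of protein-coding genes with an annotated promoter window, against the distance of their start sites from that of Cd3g in kb. Each point is 1 library (KO and WT drawn side by side). Cd3g stands high between Ube4a and Cd3d, both under 5 FPKM.

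Markers of T cells gave the CD3 values their setting. Of 14 listed markers 10 were matched, and their sum was 10.98 and 8.58 FPKM in KO and 6.83 and 7.77 FPKM in WT. The coreceptor gene Cd4 was at 1.84 and 0.00 FPKM in KO and at 0.04 and 0.00 FPKM in WT. Cd8a was at 0.20 and 0.03 FPKM in KO and 0.15 and 0.03 FPKM in WT, and Cd8b1 at 0.08 and 0.18 FPKM in KO and 0.13 and 0.10 FPKM in WT. Cd5, a surface glycoprotein of T cells, was listed at 0 in all 4 libraries. The highest of the markers was Cd28, a costimulatory receptor, at 5.68 and 4 FPKM in KO and 3.05 and 3.62 FPKM in WT. Of 3 tested T cell markers 0 passed the test (limma), where 0.214% of all genes did, and 0 of the 3 had an unadjusted p under 0.05. Constant-region genes of the T cell receptor (12 entries) matched no row and were not analysed here. Ptcra, the pre-T alpha chain, was at 0.84 and 0.69 FPKM in KO and 3.29 and 1.90 FPKM in WT, a difference that did not pass (limma, adjusted p = 0.659).

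The kinases stood at 2 levels. Zap70 was several times more abundant than either Src family kinase. Zap70 (gene 22637, chromosome 1 from 36761798 to 36782821) was measured at 92.0 and 58.8 FPKM in KO and at 86.8 and 63.3 FPKM in WT. The groups overlapped, with a log2 fold change of -0.01 (SE 0.31, 95% interval -0.72 to 0.70; limma, adjusted p = 0.997). Its sign turned with 3 of the 4 other scalings, so no direction is given. The interval leaves room for a change of up to about 0.7 on the log2 scale either way.

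Fyn (gene 14360, chromosome 10 from 39369743 to 39565381) was at 17.1 and 15.7 FPKM in KO and at 14.0 and 14.7 FPKM in WT. The KO libraries were both higher, by a log2 fold change of 0.18 (SE 0.35, 95% interval -0.62 to 0.99; adjusted p = 0.925, limma) and 0.30 under a common total. This is less than 0.44, the median within-group gap among genes with a mean of 10 to 30 FPKM. That gap is the log2 difference between the 2 libraries of a group, averaged over KO and WT for each gene. Lck (gene 16818, chromosome 4 from 129548344 to 129573641), the main Src family kinase of T cells, was at 11.3 and 12.5 FPKM in KO and at 5.20 and 12.9 FPKM in WT. WT replicate 1 was the low library, and the groups overlapped (log2 fold change 0.47, SE 0.48, 95% interval -0.63 to 1.57; limma, adjusted p = 0.825). Without WT replicate 1 the Lck value was -0.11.

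Of the adaptors, Lat was at about the level of Cd3g, and Lcp2 lay below Cd3g in every library. LAT, SLP-76 and FYN also serve the IgE receptor of mast cells, whose markers were abundant in every library. The part of mast cell RNA in the levels of Lat, Lcp2 and Fyn was not tested. Lat (gene 16797, chromosome 7 from 126363827 to 126369705), the membrane scaffold phosphorylated by ZAP-70, was at 201 and 206 FPKM in KO and at 256 and 172 FPKM in WT. The KO values lay between the WT values (log2 fold change -0.04, SE 0.24, 95% interval -0.60 to 0.51; limma, adjusted p = 0.979), and the sign turned under a common total, with or without the 20 highest genes, and without WT replicate 1. Lcp2 (gene 16822, chromosome 11 from 34046928 to 34092281), which encodes SLP-76, was at 125 and 128 FPKM in KO and at 147.5 and 151 FPKM in WT. Both KO libraries lay below both WT libraries, and the log2 fold change of -0.24 (SE 0.22, 95% interval -0.74 to 0.26) missed the threshold (adjusted p = 0.807, limma); it was -0.11 under a common total and -0.14 under one without the 20 highest genes.

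Between KO and WT, 0 of the 8 genes that could be tested passed limma's threshold, against 0.214% of the 9818 genes tested in all (0.163% higher in KO and 0.0509% lower), and 0 of the 8 had an unadjusted p under 0.05, against 9.18% of all genes. With quantile normalization 1 of the 8, Cd247, had an unadjusted p under 0.05 (limma), as did 890 of the 9818 genes tested. Under a common total the unadjusted p of Cd247 was 0.0984 (limma). The median log2 fold change of the 8 genes was -0.03, beside -0.01 over all genes tested. Libraries of the groups did not overlap in 5 of the 8: Cd3g, Cd247 and Lcp2 were lower in both KO libraries, and Cd3e and Fyn higher. Over all genes tested, 39.1% did not overlap, 20.6% with KO lower and 18.5% with KO higher. The same 5 genes did not overlap under each of the 4 other scalings tried. Library spread sets what could be seen. The within-group gap, averaged over KO and WT for each gene, had a median of 0.61 on the log2 scale at 3 to 10 FPKM, the level of Cd247. Its median was 0.26 among genes with a mean of 100 to 300 FPKM, the level of Cd3g, Lat and Lcp2.

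**Figure D3:**
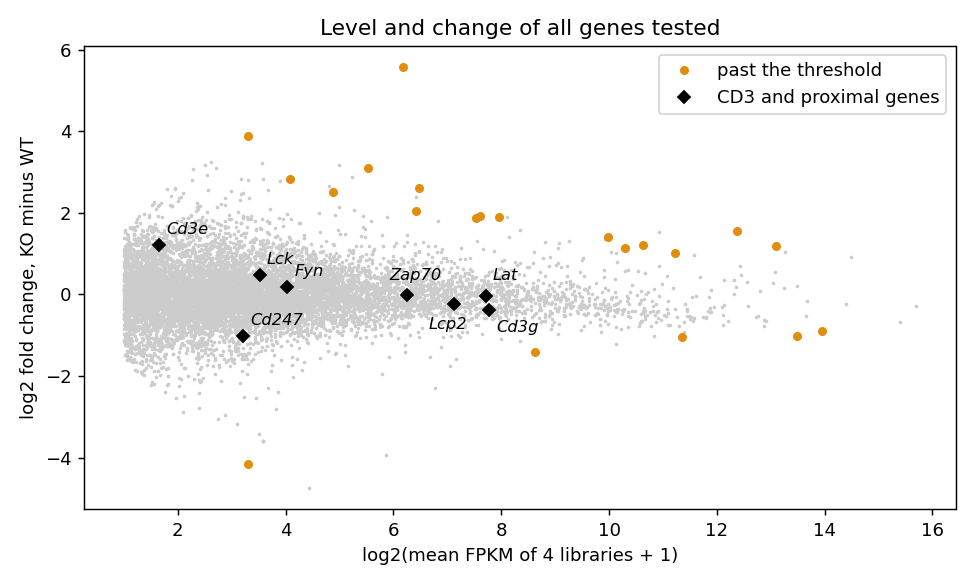
Log2 fold change (KO minus WT) against log2 of the mean FPKM plus 1 for the 9818 genes tested (grey), with the 21 genes past the threshold in orange and the 8 CD3 and proximal genes as black diamonds. The diamonds lie inside the grey cloud at their levels, between -1.02 and 1.22.

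Set in order of their means over 4 libraries, the levels ran from Cd3g (219 FPKM) and Lat (209 FPKM), whose ranges overlapped, through Lcp2 (138 FPKM) and Zap70 (75.2 FPKM), each apart from its neighbours. Below them came Fyn (15.4 FPKM), above Lck (10.5 FPKM) in every library. Lck overlapped Cd247 (8.31 FPKM), Cd247 overlapped Cd3e (2.14 FPKM), and Cd3e overlapped Cd3d (0.88 FPKM), so the order of those neighbours does not exceed their spread.

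Relatives of these genes, which serve other immune receptors, gave another view of what the libraries hold. Fcer1g, the gamma chain of Fc receptors, also carries an ITAM. It was at 1074 and 1757 FPKM in KO and at 858 and 521 FPKM in WT, which exceeded Cd247 by 148-fold and 511-fold in KO and by 71.9-fold and 49.1-fold in WT. Tyrobp (DAP12, an ITAM adaptor of NK and myeloid receptors) was at 512 and 656 FPKM in KO and 387 and 325 FPKM in WT. Hcst (DAP10, which recruits PI3 kinase) was at 915 and 1047 FPKM in KO and 1299 and 1260.1 FPKM in WT. The B cell receptor chain Cd79a was at 11.2 and 6.64 FPKM in KO and 1.69 and 0.00 FPKM in WT, and Cd79b at 9.07 and 1.01 FPKM in KO and 3.51 and 0.19 FPKM in WT. Ms4a2, the beta chain of the IgE receptor, was at 20.9 and 37.3 FPKM in KO and 19.7 and 12.7 FPKM in WT.

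Of these 6 adaptors 0 passed over all genes (limma), against 0.214% of all genes, and 4 had an unadjusted p under 0.05, against 9.18% of all genes. Their groups did not overlap in 5 of 6, against 39.1% of all genes, and the median log2 fold change was 0.87. Fcer1g and Tyrobp are highly expressed by mast cells and Ms4a2 is one of their markers. All 8 mast cell markers were higher in both KO libraries than in both WT libraries, against 18.5% of all genes tested. The part of mast cell RNA in the differences of the 6 adaptors was not tested. Of the mast cell markers, 2 rose (limma), against 0.163% of all genes tested, and both encode proteases. Mcpt4 was at 2113 and 2286 FPKM in KO and 950.4 and 959.8 FPKM in WT (limma, adjusted p = 0.0363). Tpsb2 was at 7584 and 8155 FPKM in KO and 3321 and 2174 FPKM in WT (limma, adjusted p = 0.0363). Neither call held in 10 of the 13 alternatives, among them quantile and median-ratio scaling, the replicate block and each left-out library.

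Among kinases, Syk, the relative of Zap70 used by B cells and mast cells, was at 1.21 and 5.12 FPKM in KO and at 0.97 and 0.70 FPKM in WT. Zap70 exceeded Syk by 76.1-fold and 11.5-fold in KO and by 89.5-fold and 90.4-fold in WT. Lyn, a Src family kinase of B cells and myeloid cells, was at 18.4 and 29.4 FPKM in KO and at 31.9 and 24.7 FPKM in WT, above Lck in every library. Blk and Fgr, kinases of B cells and of myeloid cells named after their values were seen, were at 0.02 FPKM or less in all 4 libraries.

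Lat2 (NTAL), an adaptor of B cells and mast cells, was at 147 and 177 FPKM in KO and at 95.7 and 86.7 FPKM in WT. Both KO libraries were higher, and the log2 fold change of 0.82 (SE 0.24) missed the threshold (adjusted p = 0.286, limma). Lat exceeded Lat2 by 1.37-fold and 1.16-fold in KO and by 2.67-fold and 1.99-fold in WT. The mast cell markers moved the same way as Lat2, and their part was not tested. Of the 8 tested genes among the other Src and Syk family kinases and adaptors, 0 passed (limma), against 0.214% of all genes, and 2 had an unadjusted p under 0.05, against 9.18% of all genes.

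**Figure D4:**
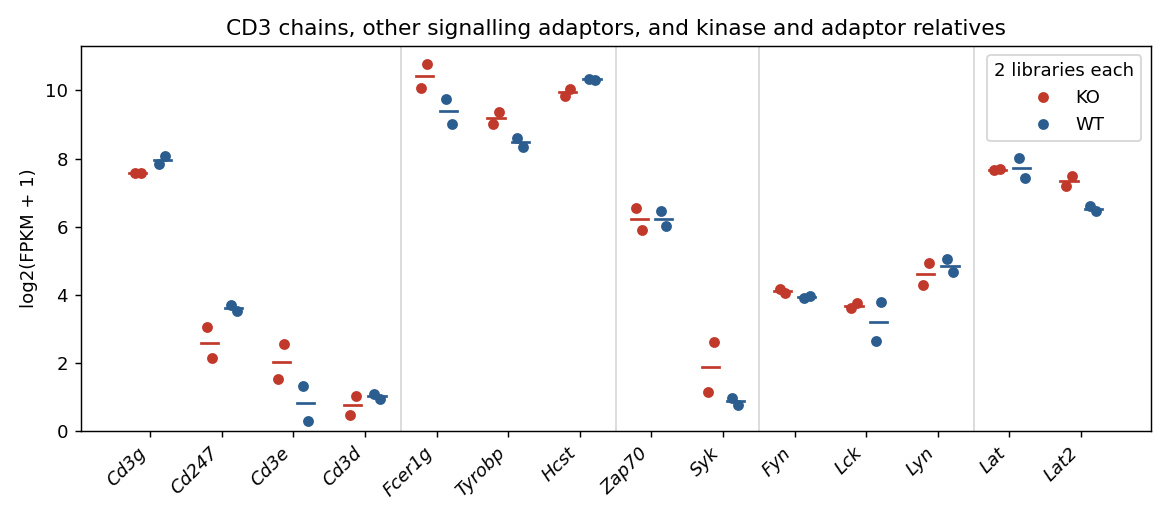
Levels as log2(FPKM + 1) of the CD3 chains, other signalling adaptors, and the relatives of Zap70, Lck, Fyn and Lat, with 1 point per library and a bar at each group mean. Fcer1g, Tyrobp and Hcst lie above all CD3 chains, and Zap70 lies above Syk in each library.

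Regulators that act on these kinases stood at very unequal levels. Among the low ones Dok1, an inhibitory adaptor named after its values were seen, was at 2.45 and 0.14 FPKM in KO and 0.10 and 0.04 FPKM in WT. Of 19 listed genes 18 were tested, 0 passed (limma), against 0.214% of all genes, and the median log2 fold change was -0.11. Ptprc (CD45), the phosphatase that activates Src family kinases, was at 181 and 163 FPKM in KO and at 241 and 231 FPKM in WT (limma, adjusted p = 0.544). Csk, which holds those kinases inactive, was at 48.7 and 35.1 FPKM in KO and 32.1 and 34.7 FPKM in WT. Sla (SLAP), which promotes turnover of the CD3 complex, was at 84.9 and 97.7 FPKM in KO and 134 and 124 FPKM in WT (limma, adjusted p = 0.553). Lime1, a transmembrane adaptor, was at 53.8 and 45.2 FPKM in KO and 52.8 and 48.6 FPKM in WT. Dok2, an inhibitory adaptor, was at 46.3 and 33.5 FPKM in KO and 37.4 and 25.5 FPKM in WT, and Unc119, a lipid-binding chaperone of Src family kinases, at 30.7 and 27.2 FPKM in KO and 31.8 and 53.8 FPKM in WT.

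Of the 18 tested regulators 2 had an unadjusted p under 0.05, a share near the 9.18% of all genes, and both are named after their values were seen. Ptpn6, the phosphatase SHP-1, was at 15.4 and 11.7 FPKM in KO and at 4.78 and 0.18 FPKM in WT (limma, adjusted p = 0.304). Sla2, a relative of Sla, was at 17.1 and 13.2 FPKM in KO and at 41.1 and 24.0 FPKM in WT (limma, adjusted p = 0.46).

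Downstream of LAT and SLP-76, 20 of 21 listed genes were tested. Of these 0 passed (limma), against 0.214% of all genes, 1 had an unadjusted p under 0.05 (Bcl10), a share no higher than the 9.18% of all genes, and the median log2 fold change was -0.13. Bcl10, the adaptor that links antigen receptors to NF-kB, was at 45.3 and 55.1 FPKM in KO and at 27.4 and 21.2 FPKM in WT. Both KO libraries were higher, with a log2 fold change of 1.02 (SE 0.31) and an adjusted p = 0.332 (limma).

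Other genes of this list with high levels were Tespa1, Skap1, Nck2, Prkcq, Fyb and Grb2. Tespa1, which couples the receptor to calcium release in thymocytes, was at 163 and 123 FPKM in KO and 159 and 153 FPKM in WT. Skap1, an adaptor in integrin activation, was at 144 and 125 FPKM in KO and 134 and 129 FPKM in WT, and its partner Fyb (ADAP) at 34.0 and 34.4 FPKM in KO and 36.2 and 30.1 FPKM in WT. Nck2, an adaptor to the actin cytoskeleton, was at 44.4 and 46.2 FPKM in KO and 73.2 and 57.8 FPKM in WT. Prkcq, the protein kinase C of the T cell synapse, was at 36.8 and 28.0 FPKM in KO and 34.2 and 40.4 FPKM in WT, and Grb2, the adaptor to Ras, at 37.8 and 28.6 FPKM in KO and 38.0 and 26.4 FPKM in WT. Plcg1, the phospholipase that LAT recruits in T cells and the 1 gene of this list left untested, was at 0.83 and 0.51 FPKM in KO and at 0.02 and 0.00 FPKM in WT, and was named after its values were seen.

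**Figure D5:**
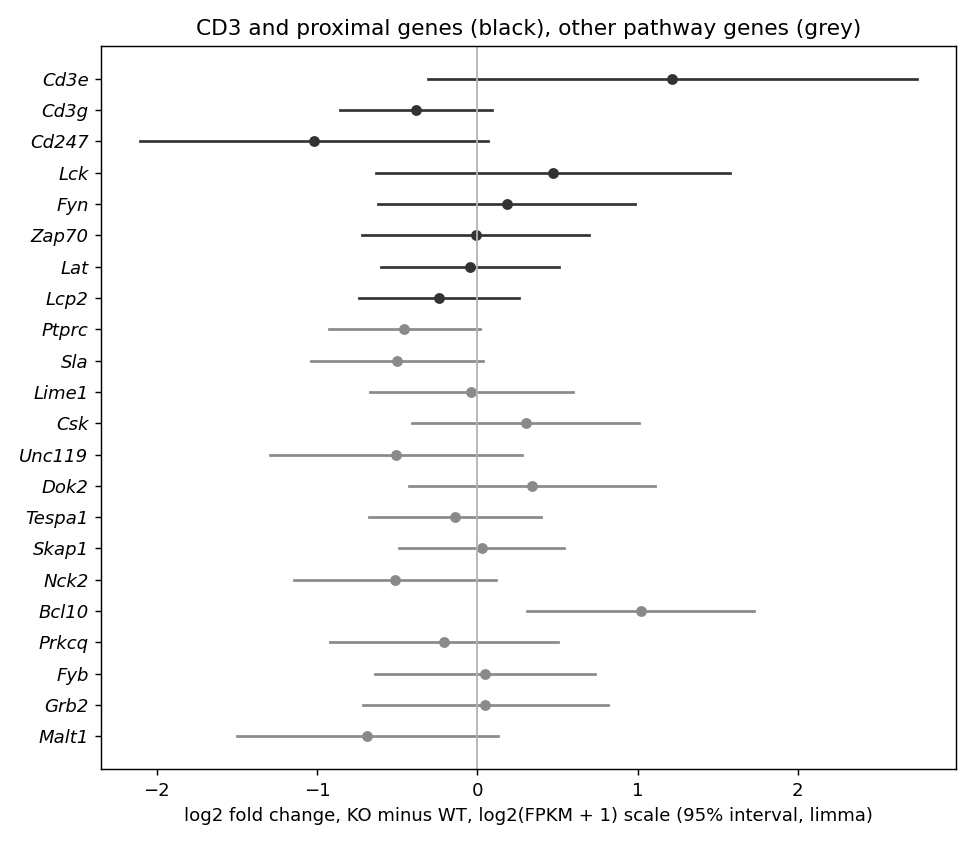
Log2 fold changes (KO minus WT) with 95% intervals from limma, not adjusted for the number of genes, for the 8 CD3 and proximal genes (black) and the most abundant regulators and downstream genes (grey). Each black interval includes 0, and that of Bcl10 does not.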

How the data were processed

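The authors deposited 1 table of FPKM values, rounded to 2 decimals, with 1 column for each of the 4 libraries. Bowtie2, RSEM and DESeq2 with GRCm38.p6 are named in the submitters' processing notes. Their roles, versions and settings, the sorting gate and the strandedness were not stated. Counts were not part of the table. Low values fell on whole-fragment steps only in part, with scores of 0.316 to 0.33 where shuffled lengths gave at most 0.164, so no fragments or counting intervals were derived. With 200 nt taken off each transcript length, the best steps corresponded to 18900000 and 20400000 mapped fragments in KO and 17400000 and 21100000 in WT. These totals rest on the length taken off and on a partial fit, and were not used as library depths. Genes were tested as log2(FPKM + 1) with limma 3.58.1 in R 4.3.3 (trend and robust moderation, group as the term) on the 9818 genes whose mean reached 1 FPKM, adjusted by Benjamini and Hochberg, with 0.05 as the threshold. This scale understates the fold changes of low genes. With 2 libraries against 2, exact permutation cannot go below p = 0.333 and was not used. The code was tested on simulated data.

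The genes studied, the 12 lists of related and marker genes and the alternatives were chosen with earlier results of these data known. Named are all 9 genes, Stk11, and from each list the genes past the threshold and then those of highest mean, with Cd4, Cd8a and Cd8b1 in any case, of which the text gives those it describes. From the downstream genes and the B cell markers 1 gene each was left out and is not reported here. Gene positions and promoter sequences are from RefSeq on GRCm38.p6. RSEM shares reads among near-identical sequences, so members of such families are uncertain. The numbers of libraries are not tied to pairs in the labels.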

Additional observations from a re-analysis of the deposited data

How the results depend on the processing

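In each of the 13 alternatives 0 of the genes followed here passed the threshold, with a smallest adjusted p of 0.466 to 0.882 (limma). The sign of Zap70 turned under a common total (0.113), median-ratio scaling (0.0111) and a common total without the 20 highest genes (0.0894). That of Lat turned under the first (0.0806) and the last of these (0.0566). A common total moves the median of all genes by 0.11, about as much. With single libraries left out, Zap70 ranged from -0.33 to 0.31, Lat from -0.33 to 0.24 and Lck from -0.11 to 1.05. The median of the genes followed here, -0.03 in the main fit, was 0.10 under a common total, beside 0.09 over all genes tested. With single libraries left out it ranged from -0.23 to 0.0876, and that of all genes tested from -0.08 to 0.04. Without KO replicate 1 it covers 9 genes, and otherwise 8. The cause was not tested.

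All genes past the threshold numbered 21, and 0 with quantile normalization, with 0.1 as the pseudocount, with no filter, without trend and robust moderation and with the replicate block, 1 with median-ratio scaling and 0 to 1 with a library left out. List genes past the threshold numbered 2 (Mcpt4 and Tpsb2), and 0 in each of those settings, median-ratio scaling and left-out libraries included. With the replicate block the smallest adjusted p of the genes followed here was 0.493 (limma); libraries of the same number did not deviate together (r = 0.03 across genes), so the numbers were not taken as pairs. Cd3d, untested at a mean under 1 FPKM, had a log2 fold change of -0.27 (adjusted p = 0.894, limma) with no filter, and Cd3e was not tested at 5 FPKM in 2 libraries. Counts were not used, so what depth limits in Cd3d, Cd3e and Cd247 was not tested.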

Other observations

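Markers of further cell types were low, apart from those of red cells. The B cell markers (7 matched) summed to 20.4 and 10.4 FPKM in KO and 5.83 and 0.19 FPKM in WT. NK and ILC1 markers (5 of 8 matched) summed to 2.80 and 0.01 FPKM in KO and 0.02 and 0.07 FPKM in WT. Of 9 macrophage markers 8 were matched, with a sum of 0.68 and 11.2 FPKM in KO and 0.65 and 4.20 FPKM in WT, and Csf1r was listed at 0 throughout. Haemoglobin and haem synthesis genes (5 matched) took 7.18% and 2.83% of all FPKM in KO and 5.40% and 7.87% in WT. The 8 mast cell markers took 2.65% and 4.14% in KO and 1.61% and 1.24% in WT.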
